A study of Gallus gallus with 3 samples.

Results

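The cyclins, the cyclin-dependent kinases (CDKs), their inhibitors and the factors that license DNA replication form the engine that carries a cell from one division to the next. Genes were taken by name from the array's platform annotation. A gene was included if its whole symbol was CCN with a letter from A to L and a number, CDK, MCM, E2F or ORC with a number, any symbol beginning with CDKN, or one of 7 single names, of which CDC7, CDC20, CDC25A, CDC45 and CDT1 were found. This gave 61 of the 13050 genes named on the array, read by 103 probe sets. Symbols such as CDK2, CDK4, CCNB2, MCM4, MCM7, CDC6 and CDC25B were not among those named here and are not analysed.

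RNA came from the endoderm of chick embryos, the layer of cells that becomes the gut lining, after incubation of fertilised eggs. Early endoderm, all of the definitive endoderm at Hamburger-Hamilton (HH) stages 4 to 5, was pooled from 500 embryos and lifted off the mesenchyme with a needle. Foregut endoderm, from HH stages 10 to 11, was taken anterior to the opening of the foregut, the anterior intestinal portal, and mid/hindgut endoderm, from HH stages 8 to 10, lay behind the prospective small intestine. Both later tissues were dissected with their mesenchyme and freed from it by 30 minutes in 0.03% collagenase, which early endoderm did not receive. Against early endoderm, collagenase and stage therefore cannot be told apart. The later tissues differ in stage as well as in region, which cannot be told apart either. The labels give no genotype, strain or drug treatment. Each tissue was 1 pool gathered every 4 hours over 1 day and 1 Affymetrix Chicken Genome Array, so n = 1 for each tissue, no difference has a replicate check, and none has a p-value.

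Progress through the cycle rests on CDKs that are active only when bound to a cyclin. D cyclins with CDK4 or CDK6 start the exit from G1, E and A cyclins drive DNA synthesis, and B cyclins with CDK1 drive mitosis, while CDKN proteins hold these kinases back. E2F factors switch the genes of S phase on or off. Before S phase the origin recognition complex (ORC), CDC6 and CDT1 load the MCM helicase onto origins, and CDC7, MCM10 and CDC45 then help to fire it. Early embryos are known for fast division, and gut endoderm keeps dividing as the tube closes. The roles given for genes below are known mainly from yeast, frog and mammals.

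Signals are in the arrays' arbitrary units, after each array was scaled to a common trimmed mean. They compare 1 gene between tissues and do not compare genes with each other. A floor of 22.1 units, the 40th percentile of all chicken probe sets, replaced lower signals in every difference, so a fold against an array below it is written as "at least". A gene was called higher or lower where the arrays were at least 2-fold apart and at least 1 of the 2 lay above the floor. The spread between probe sets of 1 gene, over 4127 genes, is given as a technical standard deviation, in log2, of 0.43 for foregut minus early, 0.31 for mid/hindgut minus early and 0.36 between the later tissues. This spread holds no variation between arrays or pools, so a difference that exceeds it is not thereby shown to be one between tissues. Between 58.9% and 60.8% of chicken probe sets lay above the floor on each array. The ratio of the 3′ to the 5′ probe set of actin, which rises as RNA degrades, was 1.55 on the early, 1.69 on the foregut and 2.19 on the mid/hindgut array, and its part in the differences was not tested.

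The tissue labels were set against 8 endoderm markers found on the array. SOX17 had signals of 9773 in early, 878 in foregut and 4947 in mid/hindgut endoderm, FOXA2 of 1488, 1023 and 868, and EPCAM of 5356.5, 9297 and 8896. GATA6 had 1126, 138 and 415, which is 8.17-fold lower in foregut and 2.71-fold lower in mid/hindgut than in early endoderm. HHEX had 1600.3, 1603 and 1308, and CLDN4 65.1, 76.9 and 52.7. GATA4 was below the floor on all 3 arrays, and FOXA1 on the early and mid/hindgut arrays. Markers of other cells also moved between the tissues. The summed signal of 11 endothelial markers was 374 in early, 8924 in foregut and 11674 in mid/hindgut endoderm, and 6 of them, CDH5 and TEK included, were below the floor in early endoderm and none in the later tissues. That of 5 red cell markers was 119, 1295 and 2360.1, of 11 gut mesenchyme markers 2651, 3472 and 1044, of 7 streak and paraxial mesoderm markers 5199.6, 237 and 3008, of 6 neural markers 208, 792 and 255, and of 10 immediate early genes 2424, 3002 and 3053, in the same order. Single genes weigh on some of these sums. TBXT alone gave 3598 of the early and 2420 of the mid/hindgut streak and paraxial mesoderm sum. MIXL1, TBX6 and MSGN1 were 12.3-fold, 7.97-fold and 2.21-fold lower in mid/hindgut than in early endoderm, and no gene of that list was called higher. COL1A2 alone gave 1957 of the early mesenchyme sum. In mid/hindgut against early endoderm 4 mesenchyme markers, POSTN, LUM, PRRX1 and COL3A1, were higher and 4, PDGFRA, COL1A2, TWIST1 and COL1A1, lower. In foregut against early endoderm 5 were higher and 1 lower. Among red cell genes CA2 gave 943 of the foregut sum, and the globins HBA1 and HBZ were 10.6-fold and 5.18-fold lower in foregut than in mid/hindgut. The part of these markers in the differences below was not tested.

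Of the 61 genes, 54 lay above the floor on all 3 arrays, or 88.5%, against 70.0% of all named genes. Another 4, CCNA1, CDKN1A, E2F3 and CDK3, were above it on 1 or 2 arrays. CDKN2A, CDKN2B and CDK18 were below it on every array. Over the 54 genes the highest array stood a median of 1.37-fold above the lowest, against 1.47-fold over the 9139 named genes that cleared the floor everywhere. Of the 58 genes above the floor on at least 1 array, 13 were at least 2-fold apart in 1 or more comparisons and 45 were within 2-fold wherever they were measured. The 13 genes are 22.4% of those measured, close to the 24.5% of all 11159 genes measured that were called in 1 or more comparisons. In bulk tissue, fewer cells of a type and less RNA per cell cannot be told apart.

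Calls were counted in each comparison. In foregut against early endoderm, of 58 genes measured, 5 were higher in foregut (CDKN1A, CDK6, CDK14, CDK5 and E2F1) and 6 lower (CCNG2, CCNE2, CCNI2, CCNE1, CDC7 and MCM10). Over all 10822 genes measured in this comparison, 10.6% were higher and 6.5% lower by the same rule. The 5 higher genes are 8.62% of those measured and the 6 lower genes 10.3%. In mid/hindgut against early endoderm, 2 of 58 genes were higher (CDKN1A and CDK6) and 4 lower (CCNA1, CCNI2, E2F3 and CCNE2). These are 3.45% and 6.90%, against 8.12% and 5.14% of 10766 genes. In foregut against mid/hindgut, 2 of 57 were higher (CCNA1 and E2F1) and 2 lower (CCNG2 and CDC7), 3.51% each, against 6.36% and 5.74% of 10929 genes. Among the 54 genes above the floor on every array, 10 were called in either direction in foregut against early endoderm, 3 in mid/hindgut against early endoderm and 3 between the later tissues. These are 18.5%, 5.56% and 5.56%, beside 15.3%, 11.1% and 10.4% of the 9139 genes that cleared the floor everywhere. The first 2 comparisons share the early array, so that an error in its signal would enter both.

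The median log2 difference of the 58 genes was −0.09 in foregut against early endoderm, with 36 of them below 0, and −0.10 in mid/hindgut against early endoderm, with 43 below 0. Over all genes measured the medians were 0.08 and 0.03, and 44.4% and 46.6% were below 0. In foregut against mid/hindgut the genes had a median of 0.02 and all genes 0.02. The share of the genes below 0 was 62.1% in foregut and 74.1% in mid/hindgut against early endoderm, and 47.4% in foregut against mid/hindgut. With scaling on hybridisation controls the median in foregut against early endoderm was 0.37 for these genes and 0.51 for all genes. The sign of small differences thus depends on the scaling, while under both scalings these genes' median was below that of all genes.

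In the G1 group, CDK6 was called higher in both later tissues by its brightest probe set, and no D cyclin was called. CDK6, the kinase that D cyclins activate, had signals of 99.3 in early, 345 in foregut and 246 in mid/hindgut endoderm, 3.48-fold higher in foregut and 2.48-fold higher in mid/hindgut than in early endoderm. The early array was the lowest of the 3, and the later arrays were 1.40-fold apart. Both calls rest on the brightest of 5 probe sets. Of the others, 3 were above the floor on all arrays, with log2 differences of 0.03, −0.05 and 0.02 in foregut and 0.74, 0.60 and 0.01 in mid/hindgut. Their signals, from 28.2 to 67.0, lay near the floor of 22.1 units, where differences are hard to read. Over the median of its probe sets CDK6 was within 2-fold, at 0.02 and 0.60, with the probe set below the floor counted as a difference of 0.

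None of the 3 D cyclins differed by 2-fold, and neither did 7066 of the 9139 genes above the floor on every array. CCND1, the D cyclin that growth signals induce in many tissues, had signals of 1675 in early, 1312 in foregut and 1002 in mid/hindgut endoderm. CCND3 had signals of 302, 226 and 191 in the same order. CCND2 had signals of 842, 656 and 1171, and so was highest on the mid/hindgut array, where CCND1 and CCND3 were lowest. Against early endoderm, mid/hindgut had log2 differences of −0.74 for CCND1, −0.66 for CCND3 and 0.48 for CCND2, each larger than the technical standard deviation of 0.31. The second probe set of CCND1 gave −0.64, and the other probe sets of CCND2 gave 0.37 and 0.20. For CCND2 foregut minus mid/hindgut was −0.84 on the log2 scale, 1.79-fold, and its other probe sets gave −0.60 and −0.89.

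Of the E cyclins, which with CDK2 open S phase, CCNE2 was lower in both later tissues and CCNE1 in foregut by the brightest probe set. CCNE2 had signals of 853 in early, 322 in foregut and 411 in mid/hindgut endoderm, 2.65-fold and 2.08-fold lower than in early endoderm. CCNE1 had signals of 311, 122 and 170, which is 2.54-fold lower in foregut and 1.83-fold lower in mid/hindgut, the latter within 2-fold. For both genes the early array was the highest and foregut the lowest. The second probe set of CCNE2 gave log2 differences of −0.58 and −0.65, the same direction within 2-fold. For CCNE1, whose brightest probe set is shared between transcripts, the next brightest had −0.96 in foregut and −0.15 in mid/hindgut. Over the median of probe sets CCNE2 stood at −0.99 and −0.85 and CCNE1 at −0.66 in foregut, all within 2-fold. The median of CCNE1 includes a probe set below the floor on all arrays, counted as a difference of 0.

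The A cyclins parted. CCNA2, the A cyclin of dividing somatic cells, had signals of 1311 in early, 1361 in foregut and 1292 in mid/hindgut endoderm, a total range of 1.05-fold. CCNA1, whose mammalian counterpart is known from the male germ line and from leukaemia, had signals of 88.3, 67.4 and 18.0, the last below the floor. It was at least 3.99-fold lower in mid/hindgut than in early endoderm and at least 3.05-fold higher in foregut than in mid/hindgut. With a floor at the 60th percentile, 60.5 units, the log2 differences were −0.55 and 0.16, since the mid/hindgut signal was then raised to a floor close to the others. CDC25A, the phosphatase that removes inhibitory phosphates from S phase CDKs, had signals of 374, 249.9 and 256, which is 1.49-fold and 1.46-fold lower in foregut and mid/hindgut and within 2-fold.

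All 4 mitotic genes were within 2-fold in every comparison, as were 7066 of the 9139 genes above the floor on every array. CDK1, the kinase of mitosis, had signals of 6313 in early, 5071 in foregut and 5451 in mid/hindgut endoderm. CCNB1, its main partner, had signals of 6883, 5216 and 4954. CDC20, which turns the anaphase-promoting complex on, had signals of 2769, 2455 and 2646, and the B cyclin CCNB3 had 1048, 1009.9 and 789.8. For all 4 genes the early array was the highest under the scaling used here. Log2 differences against it ran from −0.40 to −0.05 in foregut and from −0.47 to −0.07 in mid/hindgut. Of these, only the values of CCNB1 at −0.47 and CCNB3 at −0.41 in mid/hindgut exceeded the technical standard deviation of their comparison.

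**Figure D1:**
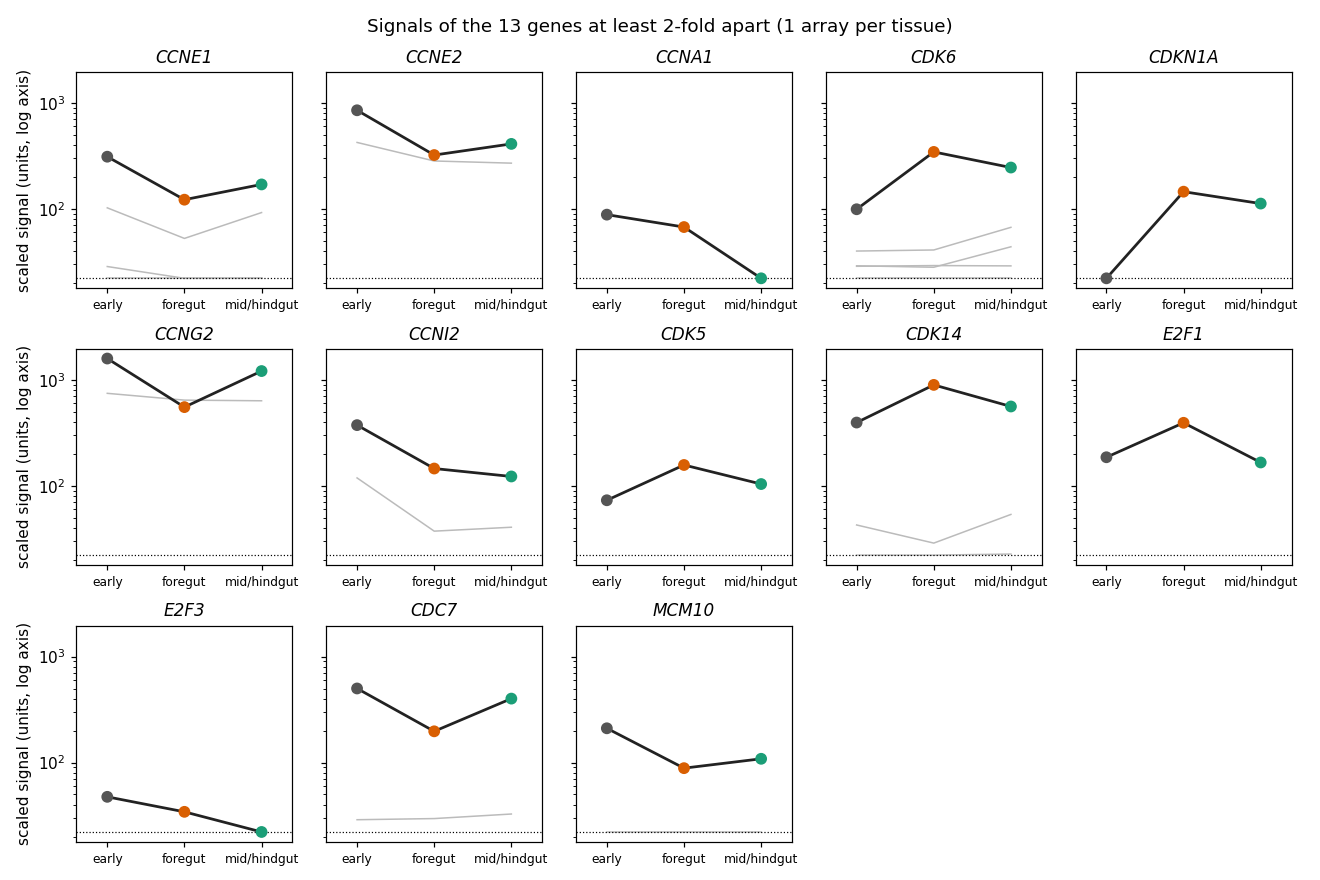
Scaled signal (y axis, log scale, arbitrary units) in early, foregut and mid/hindgut endoderm for the 13 genes at least 2-fold apart in any comparison. The dark line and coloured points are the brightest probe set, grey lines are other probe sets of the gene, the dotted line is the floor of 22.1 units, at which lower signals are drawn, and each point is 1 array. CDKN1A starts at the floor in early endoderm. The grey lines of CDK6, CDK14 and CDC7 are flatter than the dark line or run the other way in foregut. They also lie nearer the floor than the dark line.

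Among the CDKN genes, CDKN1A gave the largest difference of all 61 genes. CDKN1A encodes p21, the CDK inhibitor that p53 and growth-arrest signals induce in mammals. Its only probe set had a signal of 15.4 in early, below the floor, 145 in foregut and 112 in mid/hindgut endoderm. It was at least 6.57-fold higher in foregut and at least 5.07-fold higher in mid/hindgut, and the later tissues were 1.29-fold apart. With a floor at 60.5 units, its log2 differences became 1.27 in foregut and 0.89 in mid/hindgut, the latter within 2-fold.

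CDKN1B, which encodes p27, the inhibitor of cyclin E and CDK2, had signals of 264 in early, 437 in foregut and 430.1 in mid/hindgut endoderm. These are 1.66-fold and 1.63-fold higher and within 2-fold. Its second probe set had log2 differences of 0.08 and 0.36 in place of 0.73 and 0.71. CDKN3, a phosphatase that acts on CDKs, had signals of 279, 292 and 272. CDKN2AIP, a protein that binds the product of CDKN2A and is no CDK inhibitor itself, had 287, 366 and 261. CDKN2C, whose mammalian product blocks CDK4 and CDK6, lay just above the floor at 28.2, 33.8 and 27.3. CDKN2A had 18.6, 15.8 and 19.2 and CDKN2B 3.27, 8.62 and 20.9, all below the floor, so no fold is given for them.

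Genes of 2 further lists are given beside CDKN1A, since it responds to p53 and to stress in mammals. The listed genes' differences come from the brightest probe set and were not recomputed under other scalings, floors or probe sets. Against early endoderm, 10.6% of all genes were higher and 6.5% lower in foregut, and 8.12% and 5.14% in mid/hindgut. Of 20 measured genes of the checkpoint and p53 response, 3 were higher in foregut and 1 lower, and 2 were higher in mid/hindgut and 1 lower. The polo-like kinase PLK2 had signals of 95.7 in early, 344 in foregut and 345 in mid/hindgut endoderm, and the sestrin SESN3 had 96.5, 332 and 238. BTG2, an antiproliferative gene, was 2.11-fold higher in foregut and 1.95-fold in mid/hindgut. MDM2, which p53 also induces in mammals and which marks p53 for breakdown, went the other way, with signals of 739, 181 and 203. The list median was 0.07 in foregut and 0.08 in mid/hindgut, close to the medians of all genes, 0.08 and 0.03. Of 7 measured immediate early genes, 5 were higher and 1 lower in foregut and 4 were higher in mid/hindgut. EGR1 was below the floor at 9.65 in early endoderm and stood at 353 and 329.9 in the later tissues. CDKN1A was also higher where the endothelial markers were higher and where collagenase was used. The part of cell mixture or other handling in its difference was not tested, and that of collagenase cannot be told apart from that of stage.

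Against early endoderm, 1 of the 7 E2F factors was higher in foregut and 1 was lower in mid/hindgut, beside 10.6% and 5.14% of all genes. E2F1, an activator of S phase genes, had signals of 186 in early, 393 in foregut and 166 in mid/hindgut endoderm. Foregut alone was high, 2.11-fold above early endoderm and 2.37-fold above mid/hindgut. The call against early endoderm was lost without scaling, at 0.78 in log2, and with scaling on ribosomal protein genes, at 0.93. E2F3, another activator, had signals of 47.5, 34.3 and 21.2, the last below the floor, and was at least 2.15-fold lower in mid/hindgut than in early endoderm.

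The other 5 E2F genes were within 2-fold. E2F4 and E2F5, which bind pocket proteins and repress in resting cells, had signals of 484, 558 and 409 and of 336, 465 and 408. E2F6, a repressor that does not bind pocket proteins, had 1055, 871 and 992. The atypical repressors E2F7 and E2F8, whose transcripts rise in S phase in mammals, had 456, 373 and 317 and 696, 754 and 797. The retinoblastoma gene RB1, whose protein restrains E2F1, had signals of 364, 333 and 437, and its relatives RBL1 and RBL2 were within 2-fold as well.

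All 6 subunits of the origin recognition complex, which marks the sites where replication can start, were above the floor on every array and within 2-fold. Of the 9139 genes above the floor everywhere, 7066 were within 2-fold as well. ORC1 had signals of 493 in early, 364 in foregut and 389 in mid/hindgut endoderm, and ORC5 had 226, 167 and 171. ORC2 had 511, 479 and 501, and ORC4 had 1462, 1425 and 1352. ORC6 had 544, 457 and 551. ORC3 had the widest range, with 440.5, 279.8 and 419, and foregut was 1.57-fold below early endoderm. All 6 had values below 0 in foregut against early endoderm, from −0.65 to −0.04, with a median of −0.34, and 5 of 6 in mid/hindgut, from −0.40 to 0.02, with a median of −0.09. Over all genes measured, 44.4% and 46.6% were below 0, and the sign of small differences depends on the scaling.

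**Figure D2:**
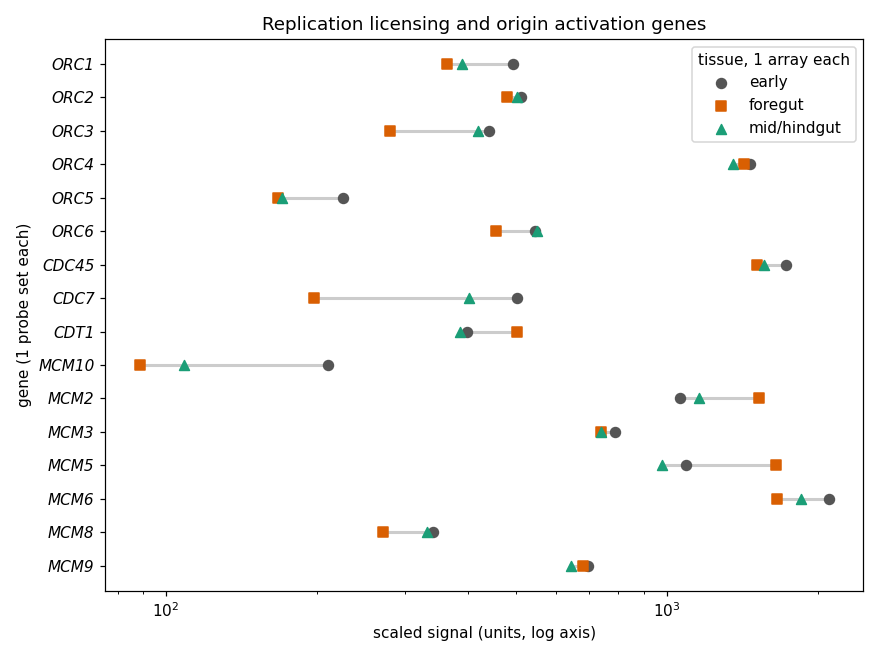
Scaled signal (x axis, log scale, arbitrary units) of the 6 ORC genes and the 10 genes of MCM loading and activation, with 1 array per tissue shown as a circle (early), a square (foregut) and a triangle (mid/hindgut), and a grey bar from the lowest to the highest. Bar lengths, not positions, can be compared between genes. CDC7 and MCM10 have the longest bars, at 2.54-fold and 2.38-fold, and MCM3 has a bar of 1.06-fold.

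Of the 4 measured subunits of the MCM helicase ring, none differed by 2-fold, beside 7066 of the 9139 genes above the floor on every array. MCM3 had signals of 786 in early, 739 in foregut and 739 in mid/hindgut endoderm, and MCM6 had 2106, 1659 and 1855. MCM2 had 1062, 1526 and 1156, and MCM5 had 1089, 1647 and 979, so that foregut was the highest array for both, with log2 differences from early endoderm of 0.52 and 0.60. By the brightest probe sets, all 4 of them shared between transcripts, the values in foregut had both signs, with −0.34 for MCM6 and −0.09 for MCM3. Only those of MCM2 and MCM5 exceeded the technical standard deviation of 0.43 over all genes. Between probe sets of the genes studied here that spread was 0.54, which only MCM5 exceeded. In mid/hindgut all 4 brightest probe sets lay between −0.18 and 0.12. Other MCM6 probe sets above the floor gave −0.08 and 0.19 in foregut, and −0.52 and −0.05 in mid/hindgut. The values of 0.19 and −0.05 came from the one that is not shared. MCM2's other probe set, not shared, was below the floor on all arrays, and MCM3 and MCM5 have 1 probe set each. MCM8 and MCM9, a pair that acts in DNA repair by recombination, had 340, 270.5 and 332 and 696, 681 and 643.

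The loading factor CDT1 had signals of 398 in early, 501 in foregut and 386 in mid/hindgut endoderm, all within 2-fold, and its second probe set gave log2 differences of 0.91 in foregut and 0.11 in mid/hindgut. GMNN, which encodes the CDT1 inhibitor geminin, had 1587, 1070.3 and 1193. CDC45, a part of the active helicase, had 1725, 1513 and 1559.8.

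Of the 10 genes of MCM loading and activation, 2, CDC7 and MCM10, were lower in foregut against early endoderm. Over all genes, 6.5% were lower and 10.6% higher in that comparison. CDC7 was also lower in foregut against mid/hindgut, beside 5.74% of all genes. Both act when origins fire, as does CDC45, which was not called. CDC7, the kinase that phosphorylates the MCM ring, had signals of 501 in early, 197 in foregut and 402 in mid/hindgut endoderm. Foregut alone was low, 2.54-fold below early endoderm and 2.04-fold below mid/hindgut. Its brightest probe set is shared between transcripts, and the other, at 28.9, 29.6 and 32.7 just above the floor, gave a log2 difference of 0.04 in foregut against early endoderm and −0.14 in foregut against mid/hindgut. The call against mid/hindgut was also lost with median scaling, at −0.96, ribosomal protein scaling, at −0.99, hybridisation control scaling, at −0.46, and over the median of its probe sets, at −0.58. MCM10, which helps CDC45 onto the origin, had signals of 211, 88.6 and 109, and was 2.38-fold lower in foregut and 1.94-fold lower in mid/hindgut. Its brightest probe set is likewise shared between transcripts. The second, which is not shared, was below the floor on all arrays, so MCM10 could not be read without shared probe sets. Over the median of both, MCM10 stood at −0.62 in foregut, but there the second probe set counted as a difference of 0.

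Of the other cyclins and kinases, 4 of 8 measured differed by 2-fold in foregut against early endoderm, 1 of 8 in mid/hindgut against early endoderm, and 1 of 7 in foregut against mid/hindgut. Over all genes, 10.6% were higher and 6.5% lower in the first comparison, 8.12% and 5.14% in the second, and 6.36% and 5.74% in the third. CCNI2, a little-studied relative of cyclin I, had signals of 373 in early, 145 in foregut and 122 in mid/hindgut endoderm, 2.57-fold and 3.05-fold lower in the later tissues. Both of its probe sets gave these calls, the second with log2 differences of −1.67 and −1.55. CCNG2, a cyclin associated in mammals with growth arrest, had signals of 1587, 552 and 1209. Foregut alone was low, 2.87-fold below early endoderm and 2.19-fold below mid/hindgut. Its second probe set had 745, 643 and 634, a log2 difference of −0.21 in foregut against early endoderm and 0.02 in foregut against mid/hindgut. CCNG1, a p53 target in mammals, had 1986, 2288 and 2914 and was within 2-fold.

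CDK5, a kinase best known from neurons, where partners other than cyclins activate it, had signals of 73.0 in early, 157 in foregut and 104 in mid/hindgut endoderm, 2.15-fold higher in foregut than in early endoderm. It stood at 0.80 in log2 without scaling and at 0.95 with scaling on ribosomal protein genes. CDK14, which with cyclin Y takes part in Wnt signalling, had 395, 895 and 560 and was 2.27-fold higher in foregut. Its second probe set, which is not shared between transcripts, had 42.7, 28.8 and 53.6, a log2 difference of −0.57 in foregut. Over the median of its probe sets CDK14 stood at 0.00, the value of a probe set below the floor in both early endoderm and foregut. CDK17 had 224, 239 and 300.5, and CDK15 had 29.4, 38.0 and 32.3. CDK3 reached the floor only in early endoderm, at 22.4, and CDK18 had 9.28, 1.69 and 2.24, below it throughout.

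All 9 genes of the transcription kinases and L cyclins, which act on RNA polymerase II and on splicing more than on division, were within 2-fold in every comparison. So were 7066 of the 9139 genes above the floor on every array. CDK7, which also activates the cell cycle CDKs, had signals of 247 in early, 193 in foregut and 222 in mid/hindgut endoderm. CDK9, the kinase of elongation, had 291, 200.5 and 202 by a probe set shared between transcripts, with log2 differences of −0.54 and −0.53 from early endoderm. Its other probe set, not shared, had 95.9, 107.3 and 107.4, with log2 differences of 0.16 and 0.16. The Mediator kinases CDK8 and CDK19 had 487, 484 and 694 and 175, 234 and 162, so that CDK8 was highest in mid/hindgut and CDK19 in foregut. CDK12 had 148, 238 and 142, CDK13 823, 792 and 786, and CDK10 78.7, 104 and 85.2. The L cyclins CCNL1 and CCNL2 had 1588, 1454 and 1553 and 1819, 1387 and 1509.7. The group's median log2 differences were −0.06 in foregut and −0.07 in mid/hindgut against early endoderm.

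Other genes of the pathway were read from fixed lists, each from its brightest probe set. Their differences were not recomputed under other scalings, floors or probe sets. Their counts stand beside 10.6% of all genes higher and 6.5% lower in foregut, and 8.12% and 5.14% in mid/hindgut, against early endoderm. Of 36 measured genes of mitosis, 1, the kinetochore gene NUF2, was lower in foregut against early endoderm, at 603 against 1502, and it was at 1450.4 in mid/hindgut. The list's median in foregut against early endoderm was −0.20, against 0.08 over all genes. The mitosis list had no gene apart by 2-fold in mid/hindgut against early endoderm, where its median was −0.12, against 0.03 over all genes. Of 31 measured genes of the replication fork, 3 were higher in foregut and 2 lower. The DNA primase genes PRIM1 and PRIM2 were 2.74-fold and 2.84-fold higher, the GINS1 helicase subunit gene 2.16-fold higher, and the fork protection genes TIPIN and CLSPN 2.29-fold and 2.16-fold lower. PRIM2 lay near the floor in early endoderm, at 33.2. In mid/hindgut PRIM1 was 2.22-fold higher and no other fork gene was called. The fork list had medians of 0.07 in foregut and 0.01 in mid/hindgut. PCNA, the sliding clamp, had signals of 5861, 5386 and 5885. Of 19 measured pocket proteins and G1 regulators, MYC, which drives growth and entry into the cycle, and CUL1, the scaffold of the SCF ubiquitin ligase, were lower in foregut, at 298 against 969 and 313 against 796, and both were within 2-fold of early endoderm in mid/hindgut at 658 and 706.

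A second probe set offers the only repeat measurement within an array. Of the 61 genes, 31 had 2 or more probe sets and 24 had 2 above the floor on all arrays. Between the 2 brightest, the log2 difference had the same sign for 16 of 24 genes in foregut against early endoderm, 21 of 24 in mid/hindgut against early endoderm, and 15 of 24 in foregut against mid/hindgut. The median gap between them was 0.48, 0.17 and 0.35. The spread of these genes' probe sets, as a standard deviation, was 0.54 in foregut against early endoderm, above the 0.43 over all genes, and 0.23 in mid/hindgut against early endoderm, below the 0.31 over all genes.

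**Figure D3:**
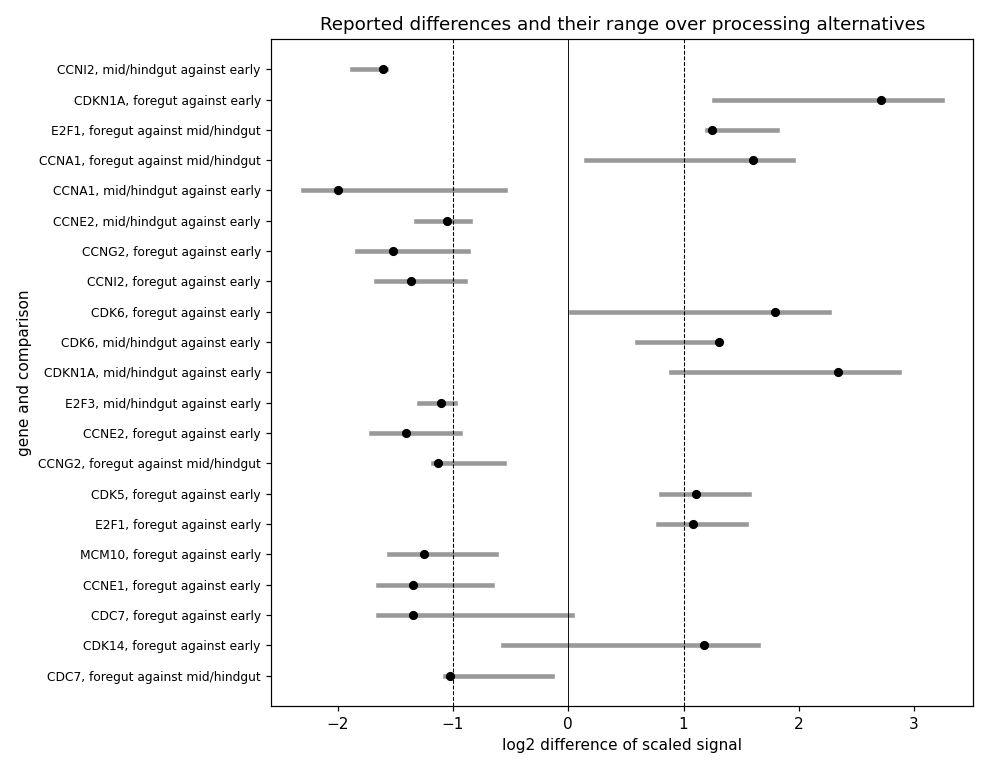
Log2 differences of scaled signal (x axis) for the 21 calls of at least 2-fold, with the gene and comparison on the y axis. The black point is the reported value, the grey bar runs from the lowest to the highest value over the processing alternatives, and dashed lines mark 2-fold. The bars of CCNI2 in mid/hindgut, CDKN1A in foregut and E2F1 in foregut against mid/hindgut stay outside the dashed lines, and those of CDC7 and CDK14 in foregut against early endoderm cross 0.

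Of the 21 calls, 3 were at least 2-fold under every alternative in which the gene could be read. These were CCNI2 in mid/hindgut against early endoderm, from −1.87 to −1.58 in log2, CDKN1A in foregut against early endoderm, from 1.27 to 3.24, and E2F1 in foregut against mid/hindgut, from 1.20 to 1.81. CDKN1A and E2F1 have 1 probe set each, not shared between transcripts. The median over probe sets and the removal of shared probe sets therefore could not move these 2 genes. Scaling on hybridisation controls, which moved the median of all genes to 0.51 in foregut against early endoderm, ended 5 of the 6 lower calls there, with CCNE2 at −0.94, CCNI2 at −0.90, CCNE1 and CDC7 at −0.88 and MCM10 at −0.78. It also brought E2F3 to −0.98 in mid/hindgut against early endoderm, and CCNG2 to −0.56 in foregut against mid/hindgut. CDK14 stood at 0.88 without scaling, and CCNG2 at −0.87 in foregut against early endoderm over the median of its probe sets.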

How the data were processed

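RNA from 3 pooled endoderm samples, 5 µg each, was measured on 3 arrays, 1 per tissue. The authors deposited linear signal intensities from MAS5, per the submitters' processing notes, with its version and its settings not given in the sources used here. The arrays' 2% trimmed means were 192, 155 and 159.8 in early, foregut and mid/hindgut endoderm, and each was scaled to their mean by 0.881, 1.09 and 1.06. Of 38535 probe sets, 27178 had 1 gene in the platform annotation, 177 had several and were left out, and 11180 were not listed; 26863 matched the current gene table. Each gene was read from 1 probe set, the one whose floored log2 signals had the highest mean. With 1 array per tissue no test was possible, and the number of arrays limits the precision. The technical standard deviation is that of the difference in log2 ratio between the 2 brightest probe sets of a gene, divided by the square root of 2. Steps were tested on simulated data. Named are all members, endoderm markers and called genes of the fixed lists. The latter are at most 4 per list and comparison, except for the replication fork and gut mesenchyme. RB1, RBL1, RBL2, GMNN and PCNA, within 2-fold, were chosen after their values were seen. The members, lists and alternatives were chosen with earlier results of these data known. Python 3.11.15, numpy 2.4.6 and pandas 2.3.3 were used.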

Additional observations from a re-analysis of the deposited data

How the results depend on the processing

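No paired analysis was possible because each tissue had 1 array. Of 13 alternatives, all but the 3-fold setting recomputed the differences of the 13 named genes, 453 values. Of these, 401 moved by less than the technical standard deviation and 50 by more, and 2 calls changed sign. The 2 changed sign without probe sets shared between transcripts, CDC7 to 0.036, close to no difference, and CDK14 to −0.57 in foregut against early endoderm. Both were then read from another probe set near the floor. Its early and foregut signals were 28.9 and 29.6 for CDC7 and 42.7 and 28.8 for CDK14. Other sign changes were counted by size, such as MCM10 from −0.29 to 0.28 in foregut against mid/hindgut with hybridisation control scaling. Some of the 401 could not move, since a changed floor leaves genes above it as they were, and 1 probe set is its own median. In the median over probe sets, a probe set below the floor on both arrays counted as a difference of 0. Such probe sets draw the median toward 0, so a call lost in this setting need not rest on a measured signal. Counts of genes higher and lower in the main setting were 5 and 6 for foregut against early, 2 and 4 for mid/hindgut against early, and 2 and 2 for foregut against mid/hindgut. For foregut against early, the higher count became 2 without scaling, 3 with ribosomal protein scaling, 8 with hybridisation control scaling, 3 over the median of probe sets and 2 at 3-fold, and the lower count became 1 with hybridisation control scaling, 1 over the median of probe sets, 3 without shared probe sets and 0 at 3-fold. For mid/hindgut against early, the higher count became 1 with a floor at the 60th percentile, 1 over genes above the floor on all arrays, 1 over the median of probe sets and 1 at 3-fold, and the lower count became 7 without scaling, 2 with the 60th percentile floor, 2 over genes above the floor on all arrays and 2 at 3-fold. For foregut against mid/hindgut, the higher count became 10 with hybridisation control scaling, 1 with the 60th percentile floor, 1 over genes above the floor on all arrays and 1 at 3-fold, and the lower count became 1 with median or ribosomal protein scaling and without shared probe sets, and 0 with hybridisation control scaling, over the median of probe sets and at 3-fold. The comparison with the most calls was thus foregut against early in the main setting, with 11 against 6 and 4, but mid/hindgut against early without scaling (9 against 8) and at 3-fold (3 against 2), and foregut against mid/hindgut with hybridisation control scaling (10 against 9), and both comparisons with early had 4 over the median of probe sets. Hybridisation control scaling moved the median of all genes to 0.51 in foregut against early and 0.56 in foregut against mid/hindgut, and that of the cell cycle genes to 0.37 and 0.59. Without scaling the median of all genes was −0.21 and −0.22 against early endoderm. A floor set by viral probe sets (their 95th percentile), chosen after seeing the data, quantile scaling, a floor at the 20th percentile and no floor kept every count within 1.5 times. Signals near the floor limit what can be said of CCNA1, CDKN1A, E2F3, CDK3, CDK15, CDKN2A, CDKN2B and CDKN2C, and of PRIM2 among the listed genes. They also limit what the dimmer probe sets of CDK6, CDC7 and CDK14 can show.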

Other observations

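Another 29 genes have symbols that begin like those above but fall outside the rule, such as cyclins with a letter only and chosen other CDC genes. In foregut against early endoderm 1 of 27 measured was higher and 3 lower, beside 10.6% and 6.5% of all genes. In mid/hindgut against early endoderm 3 of 27 were higher and 1 lower, beside 8.12% and 5.14% of all genes. The medians of these related genes were −0.07 and −0.04. CCNY, the cyclin that partners CDK14, had signals of 272 in early, 793 in foregut and 357 in mid/hindgut endoderm, 2.92-fold higher in foregut than in early endoderm. CDK14 was 2.27-fold higher there by its brightest probe set alone. CCNJ had signals of 836, 270.2 and 702, 3.09-fold lower in foregut than in early endoderm and 2.60-fold lower than in mid/hindgut. Its relative CCNJL had 45.2, 70.9 and 170.5, 3.77-fold higher in mid/hindgut than in early endoderm. CDC14B, a phosphatase, had 141, 36.8 and 52.9, 3.84-fold and 2.67-fold lower in the later tissues. Of the cyclins that partner transcription kinases, CCNT2 had 261, 129 and 223, 2.02-fold lower in foregut than in early endoderm, and CCNC, CCNH and CCNK were within 2-fold in every comparison. These genes were chosen for naming after their values were seen, and their differences were not recomputed under the alternatives.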
